A study of Mus musculus with 9 samples.

Results

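mmu-miR-21a is the mouse form of miR-21, a microRNA (miRNA) made from the Mir21a gene. Its precursor hairpin gives a 5p arm, mmu-miR-21a-5p, and a 3p arm, mmu-miR-21a-3p; the species prefix is left out below. Both arms, with every array probe that the scanner files assign to them, were taken by name, without a threshold on any value. They are 2 of the 1881 mouse miRNAs on the array, and 6 of its 4415 probes: 2 probes for miR-21a-5p and 4 for miR-21a-3p.

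Liver miRNA of male C57BL/6J mice, an inbred strain, was measured on 9 one-colour Agilent arrays, 3 per group, when the mice were 20 weeks old. Metformin mice ate a high fat diet with 45% of its energy from fat for 17 weeks from 3 weeks of age, and were given metformin, an oral drug for type 2 diabetes, at 3 mg per kg per day by stomach tube over the final 5 weeks. High fat diet mice ate the same diet and were given saline by stomach tube over the same 5 weeks. Control mice ate chow for 17 weeks, and the labels do not say whether they received a vehicle. Each array measured a pool of 4 livers, so replicate error here is that of pools, and the variation between single mice was not measured. In such bulk tissue, more cells of a type and more RNA per cell cannot be told apart.

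A miRNA guides Argonaute proteins to messenger RNAs through its seed, bases 2 to 8 from the 5′ end, and lowers their translation and stability. For miR-21 the 5p arm is the one mostly loaded as the guide, and the 3p arm is mostly discarded, although it can act in some cells. A known miR-21 target is Pdcd4, an inhibitor of translation. In liver, miR-21 is made by hepatocytes and by stellate and immune cells, and it is widely studied in steatohepatitis, fibrosis and liver cancer.

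The sequences below show what the probes of this family have to tell apart. They are those of RefSeq on build GRCm38.p6, 5′ to 3′, with the seed in capitals.

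miR-21a-5p: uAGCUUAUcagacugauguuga

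miR-21a-3p: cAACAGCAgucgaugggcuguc

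miR-21c: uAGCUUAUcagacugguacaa

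miR-21b: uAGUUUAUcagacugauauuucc

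miR-21a-5p lies at chr11:86584120-86584141 and miR-21a-3p at chr11:86584082-86584103, both on the minus strand. Mir21a lies within the annotated span of 1 other gene of that table, Vmp1, which encodes a membrane protein needed for autophagy. In the Mir21a hairpin, at chr11:86584067-86584158 on the minus strand, the 2 mature arms are shown in capitals.

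Mir21a hairpin: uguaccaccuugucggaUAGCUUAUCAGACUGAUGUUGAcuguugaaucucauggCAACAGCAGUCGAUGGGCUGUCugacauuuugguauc

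Among the 1738 mature mouse miRNAs of the table, miR-21c (chr8:128278188-128278208, minus strand) was the only other one with the seed of miR-21a-5p, and no other shared the seed of miR-21a-3p. Counted from the 5′ end of miR-21a-5p, miR-21c has the same first 15 bases and then differs by A16G, G18A, U19C, U20A and G21A. miR-21b (chr3:29636768-29636790, plus strand) differs within the seed by C4U, and outside it by G18A, G21U and A22C. Both relatives have 2 probes of their own on the array, and these gave almost no signal. Over the 9 arrays, 4 of 270 spots for miR-21b and 1 of 270 for miR-21c were well above background. Their median intensity per array, outside the edge strips described next, was 0.142 to 2.45 for miR-21b and -1.51 to 1.14 for miR-21c. The files at hand hold no probe sequences, so the bases that each miR-21a probe covers are not described here.

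The 15 spots of each miR-21a-5p probe lie across the whole width of the array. On 6 of the 9 arrays those near the left or right edge gave less signal, and some gave almost none. On high fat diet replicate 1, the brighter probe had a median intensity of 1.59 over 7 spots within the strip at the right edge, against 2652 over the spots outside it. On metformin replicate 2 the same probe read 458 in the strips and 3181 outside them. Control replicates 1, 2 and 3 read 37.6, 3.04 and 183 in their strips, and high fat diet replicate 3 read 112. For the dimmer probe, control replicates 1, 2 and 3 read 15.6, 197 and 251 in the strips, against 209, 253 and 359 outside. Those strip values came from 9, 1 and 1 spots. High fat diet replicates 1 and 3 read 6.56 and 113 over 11 and 4 strip spots, against 256 and 349. Metformin replicate 2 read 31.7 in 1 strip spot, against 285. Metformin replicates 1 and 3 and high fat diet replicate 2 had no strip. The strips covered 31.1% to 53.6% of all spots on the arrays that had them, 1 metformin, 2 high fat diet and all 3 control arrays. They were found from all bright probes and were left out, and every level below is the median of the remaining spots unless all spots are named.

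**Figure D1:**
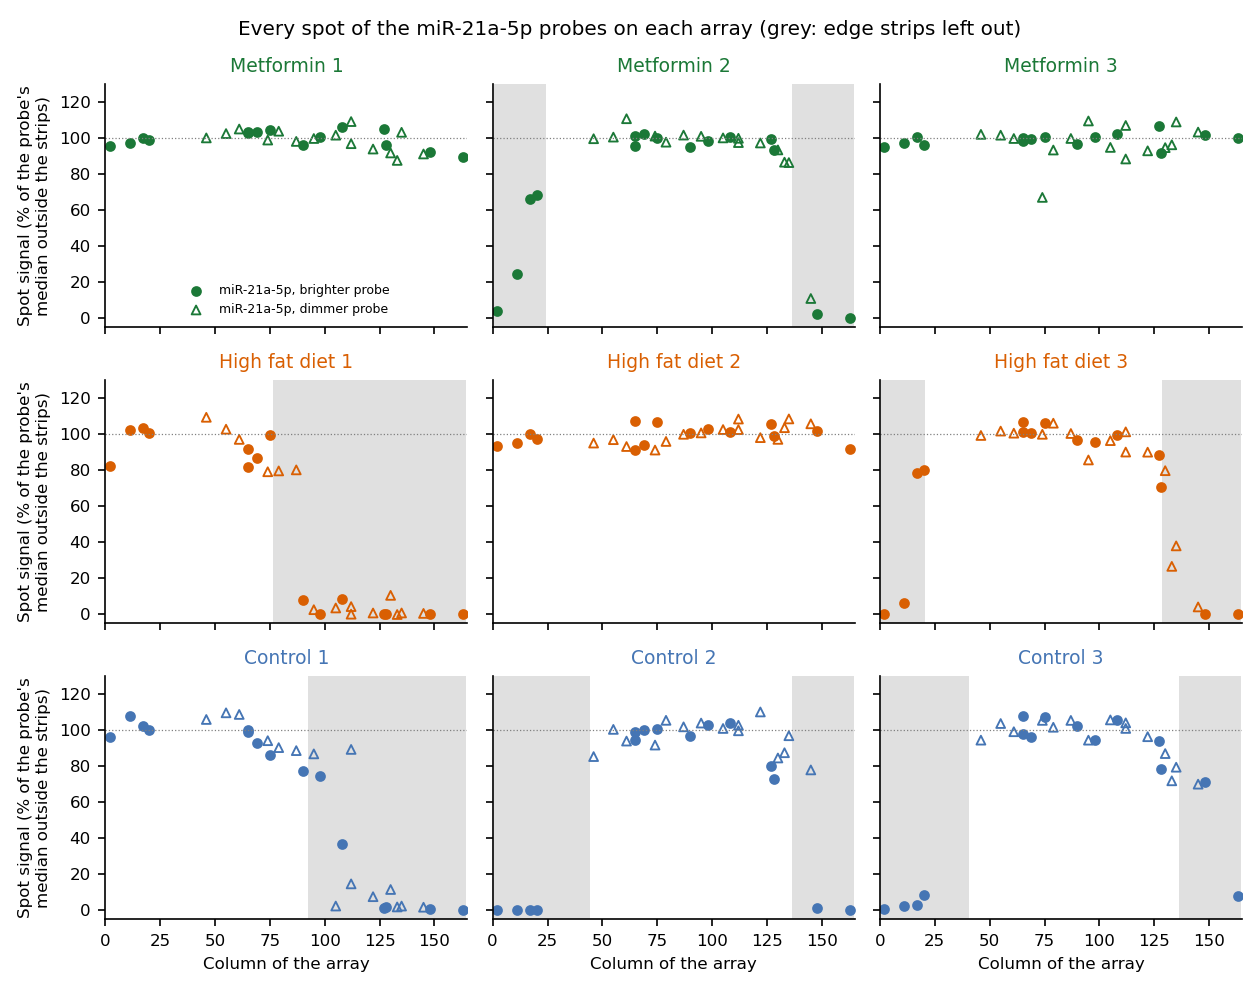
Signal of every spot of the brighter (filled circles) and dimmer (open triangles) miR-21a-5p probe against the column of the array, from 1 to 164, as a percentage of that probe's median outside the strips on the same array. Rows of panels show the metformin, high fat diet and control arrays, and grey areas are the strips. Outside the grey areas the spots lie near 100%, and most of those well inside them lie near 0%.

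Other properties of the arrays touched these results too. Control replicate 3 was alone on its slide, and the other 8 arrays shared another. On the shared slide, all 3 high fat diet arrays and metformin replicate 1 lay in row 1, and metformin replicates 2 and 3 and control replicates 1 and 2 lay in row 2. The feature extraction software called 136 to 190 miRNAs detected per array, and 0 spots were saturated. The 4 hepatocyte miRNAs on the marker list, miR-122-5p, miR-192-5p, miR-194-5p and miR-148a-3p, were detected on all 9 arrays. The muscle miRNAs set high fat diet replicate 3 apart. miR-1a-3p read -0.45 there and miR-133a-3p -0.12 on the log2 scale relative to the array's 75th percentile, and on the other 8 arrays the highest values were -3.74 and -3.83. The part of this in the miR-21a values was not tested, and differences without that array are given below. Markers of biliary and other epithelium (miR-200a-3p, miR-200b-3p, miR-200c-3p and miR-141-3p) and of pancreatic acinar cells (miR-216a-5p and miR-217-5p) did not pass the detection filter in any group.

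The brighter miR-21a-5p probe was among the brightest on the array. Its median intensity over the arrays ranked 8 of 4200 probes, between a probe of miR-3963 and a probe of miR-192-5p, a hepatocyte miRNA. The dimmer probe ranked 42, between probes of miR-148a-3p and miR-107-3p. Brightness depends on the probe as well as on its RNA, so these ranks order probes and not amounts of RNA.

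For the brighter probe, the intensity was 2803, 3181 and 3185 on metformin replicates 1 to 3, 2652, 5029 and 3511 on high fat diet replicates 1 to 3 and 2326.5, 2668 and 3528.5 on control replicates 1 to 3. Levels were then scaled to each array's own 75th percentile, taken over 187 probes. The log2 level was 3.43, 3.74 and 3.74 with metformin, 3.53, 4.12 and 3.43 on the high fat diet and 3.52, 3.55 and 3.91 in controls. The 3 groups overlapped throughout. High fat diet replicate 2 was the highest of the 9 arrays, and metformin replicate 1 and high fat diet replicate 3 were the lowest, so the high fat diet group alone spanned the whole range of 0.69.

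The dimmer probe showed the same order at the top. Its level was 0.18, 0.26 and 0.36 with metformin, 0.16, 0.81 and 0.10 on the high fat diet and 0.05, 0.15 and 0.62 in controls. High fat diet replicate 2 and control replicate 3 again stood above the other 7 arrays, and the groups overlapped. Its intensity ran between 209 and 506 over the arrays, and it had between 4 and 15 usable spots on each.

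Both probes gave nearly the same picture of each array. The log2 difference between the brighter and the dimmer probe had an SD of 0.0774 over the 9 arrays, and their levels had a Pearson r of 0.954 and a Spearman rho of 0.85. Without the 2 arrays farthest from the median, high fat diet replicate 2 and control replicate 3, r was 0.790 over 7 arrays. The probes share each array's RNA, labelling and scaling, so this r describes their concordance only. Spots within an array varied by a median coefficient of variation of 4.91% for the brighter probe and 6.42% for the dimmer one. The SD between pools of a group, taken over the 3 groups together, was 0.27 for the brighter probe and 0.29 for the dimmer one on the log2 scale.

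**Figure D2:**
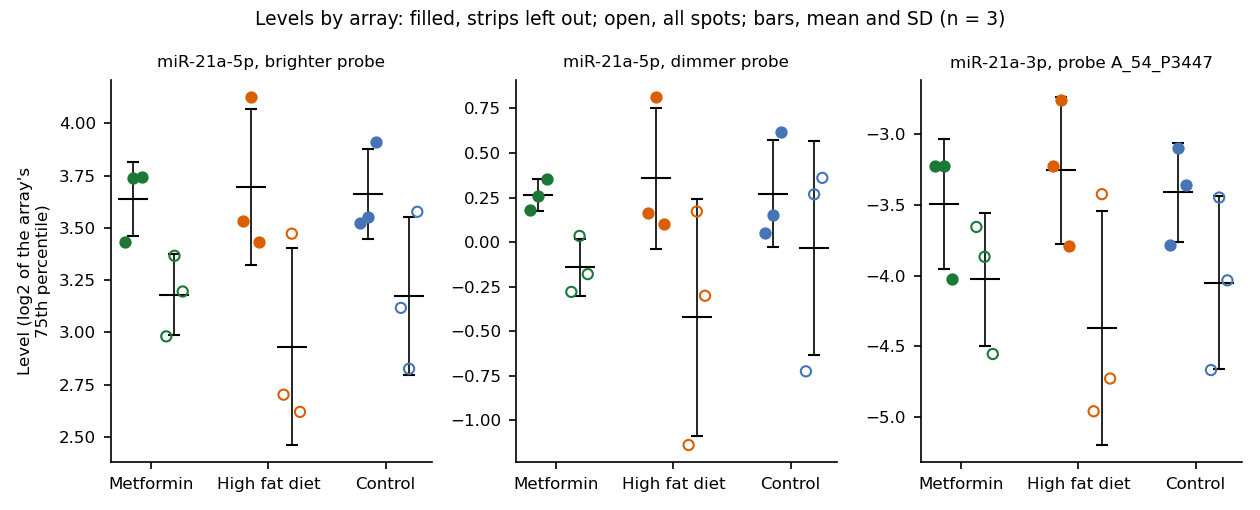
Log2 level relative to the array's 75th percentile for the 2 miR-21a-5p probes and the miR-21a-3p probe with signal, on metformin, high fat diet and control arrays (n = 3 each). Filled points leave the strips out, open points average all spots, and bars show mean and SD. In each panel the filled points of the 3 groups overlap, and high fat diet replicate 2 is the highest of the 9.

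The first comparison asks whether the high fat diet was accompanied by another level of miR-21a-5p, and neither probe detected one. The brighter probe averaged 3.70 ± 0.37 in high fat diet livers and 3.66 ± 0.22 in control livers (SD, n = 3 each), a log2 difference of 0.03 with a standard error of 0.18. Its 95% interval ran from -0.36 to 0.42, that is from 0.781-fold to 1.34-fold. The limma test gave an adjusted p of 0.907, and the exact permutation test gave p = 0.9. The dimmer probe averaged 0.36 ± 0.39 in high fat diet livers and 0.27 ± 0.30 in control livers, a difference of 0.09 with an interval from -0.33 to 0.50 (limma, adjusted p = 0.787). The upper limit was 1.34-fold for the brighter and 1.41-fold for the dimmer probe. With slide row as a block, fitted to the shared slide only and so without control replicate 3, these limits were 2.21-fold and 2.13-fold.

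Single arrays set the sign of this difference. Without high fat diet replicate 2 it was -0.18 for the brighter and -0.14 for the dimmer probe, and without high fat diet replicate 3, the array with the muscle miRNAs, it was 0.17 and 0.21. Without control replicate 3, which leaves only arrays of 1 slide, it was 0.16 and 0.26. None of these values passed the test. No slide row held arrays of both groups, so there is no value within a row. With row as a block the difference was 0.47 (SE 0.31) and 0.39 (SE 0.32), which did not pass either (limma, adjusted p = 0.343 and 0.472). That fit used the shared slide only, without control replicate 3. It linked the 2 groups through the metformin arrays alone, with 1 metformin array in row 1.

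The second comparison asks what 5 weeks of metformin did on top of the diet. The brighter probe averaged 3.64 ± 0.18 in metformin livers and 3.70 ± 0.37 in high fat diet livers (SD, n = 3 each). The difference was -0.06, with an interval from -0.45 to 0.33, or from 0.733-fold to 1.26-fold (limma, adjusted p = 0.912, exact permutation p = 0.9). The dimmer probe averaged 0.27 ± 0.09 in metformin livers and 0.36 ± 0.39 in high fat diet livers, with a difference of -0.09 and an interval from -0.51 to 0.32 (limma, adjusted p = 0.876). Without high fat diet replicate 2 the differences were 0.16 and 0.13. Within row 1 of the shared slide, the 1 metformin array was lower than the mean of the 3 high fat diet arrays by a difference of -0.26 for the brighter and -0.18 for the dimmer probe. For the brighter probe it read 3.43, against 3.53, 4.12 and 3.43 on high fat diet replicates 1 to 3. For the dimmer probe it read 0.18, against 0.16, 0.81 and 0.10, so only high fat diet replicate 2 stood above it.

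Metformin livers were also set against control livers, a contrast that holds diet and drug together and shares the groups of the first 2 comparisons. The brighter probe averaged 3.64 ± 0.18 in metformin livers and 3.66 ± 0.22 in control livers, a difference of -0.02 with an interval from -0.41 to 0.37 (limma, adjusted p = 0.954, exact permutation p = 1). The dimmer probe gave -0.01, with an interval from -0.42 to 0.41 (limma, adjusted p = 0.985). Within row 2, 2 metformin arrays stood 0.20 from 2 control arrays for the brighter and 0.21 for the dimmer probe. With row as a block these differences had standard errors of 0.20 and 0.21 and did not pass (limma, adjusted p = 0.524 and 0.529).

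The 3p arm was measured far less firmly, because its 4 probes did not behave alike. Probes A_54_P3444 and A_54_P3445 had no spot well above background outside the strips, 0 of 49 and 0 of 60, and their medians per array lay between -1.95 and 4.17 intensity units. Probe A_54_P3446 had 37 of 43 such spots well above background, but only 1 usable spot each on control replicates 2 and 3. It was therefore tested only in the fit with all spots, and its means in that reading are given below. Its intensity was 21.8, 17.8 and 9.03 on the metformin arrays and 17.0, 31.6 and 16.7 with the high fat diet. Control replicate 1 read 16.3, and the lone spots of control replicates 2 and 3 read 0.069 and 17.4.

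Probe A_54_P3447 had 45 of 46 spots well above background and carries the miR-21a-3p results. Its intensity was 27.8, 25.4 and 14.6 on the metformin arrays, 24.5, 42.7 and 23.6 with the high fat diet and 14.7, 26.7 and 22.9 in controls, from 2 to 7 spots each. On the log2 scale its level was -3.22, -3.23 and -4.02 with metformin, -3.23, -2.75 and -3.79 on the high fat diet and -3.78, -3.09 and -3.36 in controls. The groups overlapped, with high fat diet replicate 2 the highest array and metformin replicate 3 the lowest. Spots of 1 array varied by a median of 12.0%, and pools of a group by an SD of 0.45, both more than for the 5p probes.

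miR-21a-3p did not pass the test in any comparison. It averaged -3.26 ± 0.52 in high fat diet livers and -3.41 ± 0.35 in control livers (SD, n = 3 each), a difference of 0.16 with a standard error of 0.27 and an interval from -0.44 to 0.76 (limma, adjusted p = 0.730, exact permutation p = 0.8). In metformin livers it averaged -3.49 ± 0.46, and the difference from high fat diet livers was -0.24 with an interval from -0.84 to 0.36 (limma, adjusted p = 0.787). Metformin livers differed from control livers by -0.08, with an interval from -0.68 to 0.52 (limma, adjusted p = 0.874). The high fat diet difference was -0.10 without high fat diet replicate 2, -0.03 without control replicate 1 and 0.42 without high fat diet replicate 3, the array with the muscle miRNAs.

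The balance of the arms on each array was compared as well. The log2 difference of the 3p probe minus the brighter 5p probe averaged -7.13 ± 0.57 with metformin, -6.95 ± 0.24 on the high fat diet and -7.07 ± 0.37 in controls (SD, n = 3 each). The value itself also holds the probes' own brightness, and only its change between groups can be read. It changed by 0.12 in high fat diet against control livers (exact permutation p = 0.8), by -0.18 in metformin against high fat diet livers (p = 0.8) and by -0.06 in metformin against control livers (p = 0.9). With 3 arrays in either group, 0.1 is the smallest p such a permutation test can give. The levels of the arms had an r of 0.421 over the 9 arrays, a rho of 0.233, and an r of -0.16 without high fat diet replicate 2 and control replicate 3, so that relation rested on these arrays.

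Set against all 226 probes tested, the miR-21a probes were not among those that changed. Of the 3 miR-21a probes tested, 0 passed an adjusted p of 0.05 by limma and 0 had an unadjusted p under 0.05, in each comparison. In high fat diet against control livers 26 of the 226 probes passed (11.5%), and 75 had an unadjusted p under 0.05. Of the 26, 9 were higher and 17 lower, and this split moved with the reading: it was 18 higher and 3 lower in the columns outside the strips on all arrays, 5 and 46 with normexp background correction, and 1 and 8 with all spots. In metformin against high fat diet livers 0 passed (0%), with 27 at an unadjusted p under 0.05. In metformin against control livers 3 passed (1.33%), with 46 at an unadjusted p under 0.05. The arrays of the groups were fully apart for 41.2%, 22.6% and 27% of all probes in these 3 comparisons, and for 0 of the 3 miR-21a probes. By rank of p in the diet comparison, the brighter miR-21a-5p probe was 212 of 226, the dimmer probe 189 and the miR-21a-3p probe 180.

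**Figure D3:**
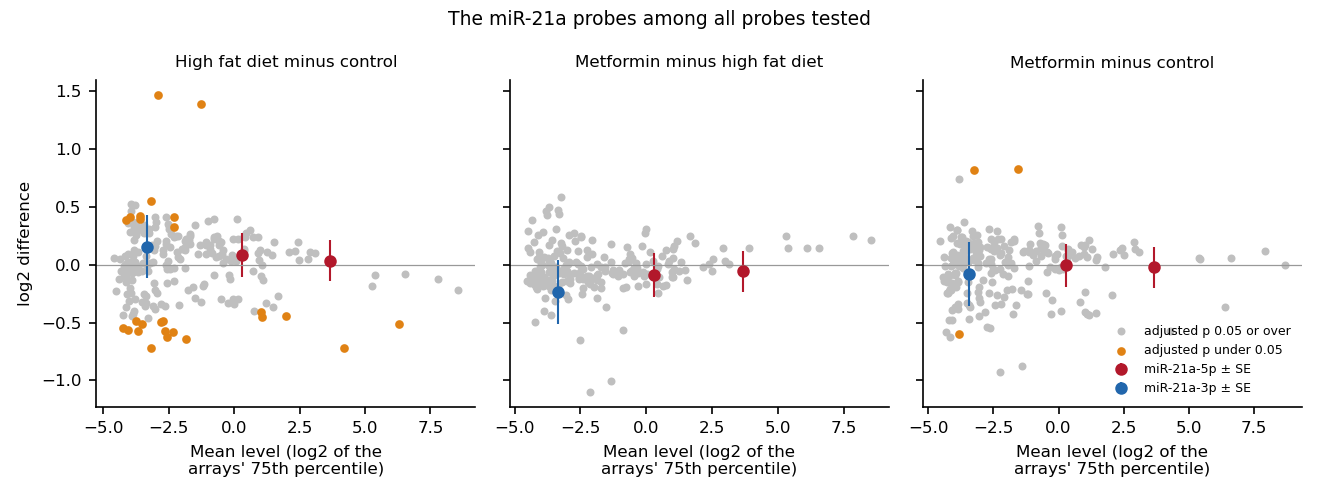
Log2 difference between groups against mean log2 level for the 226 probes tested, in high fat diet minus control, metformin minus high fat diet and metformin minus control livers. Orange points passed an adjusted p of 0.05, grey points did not, and the miR-21a-5p (red) and miR-21a-3p (blue) probes carry their standard error. The red and blue points lie between -0.24 and 0.16, near the line at 0, and the 2 highest points on the left, both probes of miR-34a-5p, lie at 1.39 and 1.47.

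Other miRNAs that the liver literature ties to injury or fibrosis gave values to read miR-21a against. Of 16 listed, 9 passed the detection filter. In high fat diet against control livers 2 of the 9 rose and 0 fell, all 9 differences were above 0, and their median was 0.28. Over all 226 probes tested, 9 passed as higher and 17 as lower, 133 (58.8%) were above 0 and the median was 0.05. miR-34a-5p, a p53 target that is known from fatty liver disease, had levels of -1.13, -1.15 and -1.17 with metformin, -0.32, -0.53 and -0.92 on the high fat diet and -1.91, -1.96 and -2.08 in controls, with no overlap between the high fat diet and control arrays. It rose by 1.39 (SE 0.14, limma, adjusted p = 8.50e-05) in high fat diet livers, and by 0.83 (SE 0.14, adjusted p = 0.00707) in metformin against control livers. Metformin against high fat diet livers differed by -0.56 for miR-34a-5p, which did not pass (adjusted p = 0.105). miR-199a-3p, abundant in mesenchymal cells, rose by 0.33 in high fat diet livers (SE 0.09, adjusted p = 0.0373), a call made under 8 of 24 settings, with adjusted p values up to 0.542. The brighter miR-34a-5p probe was called under 23 of 24 settings and the other under 21 of 23. These counts and that of miR-199a-3p leave out the columns outside the strips on all arrays, since these probes did not enter that fit. They also leave out the authors' deposited table, where 0 of 139 miRNAs passed in high fat diet against control livers. miR-155-5p, induced in activated immune cells, was not well above background on any array.

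Against high fat diet livers, metformin livers had 0 of the 9 past the test, 1 difference above 0 and a median of -0.18. Over all 226 probes 0 passed, 89 (39.4%) were above 0 and the median was -0.05. Against control livers, 1 of the 9 rose, miR-34a-5p, and the median was 0.10. Over all 226 probes 2 passed as higher and 1 as lower, and the median was 0.05. Of 14 miRNAs listed as restraining fibrosis or inflammation, 11 were tested and 0 passed in any comparison. In high fat diet against control livers 10 of these 11 differences were above 0, so both lists leaned the same way. Their medians were 0.19 in high fat diet against control livers, -0.06 in metformin against high fat diet livers and 0.06 in metformin against control livers. Within that list, miR-29a-3p, which targets collagen messages, differed by 0.19 in high fat diet against control livers (SE 0.10, adjusted p = 0.205). miR-122-5p, the leading hepatocyte miRNA, differed by -0.08 there (SE 0.10, adjusted p = 0.569).

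Across the 9 arrays, few miRNAs followed miR-21a-5p. Of the 116 other miRNAs detected on all arrays, the median Pearson r with the brighter probe was 0.0870, and 2 had an r above 0.8. These were miR-223-3p, a miRNA of neutrophils and other myeloid cells, with an r of 0.885, and miR-331-3p with an r of 0.803. miR-30e-5p (0.616), miR-30a-5p (0.551) and miR-101a-3p (0.517) came next, and miR-21a-3p was 12th of the 116. These r values were ranked over many miRNAs, the points share each array's RNA, slide and scaling, and no p is given.

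miR-223-3p had levels of -2.40, -2.27 and -2.17 with metformin, -2.19, -1.94 and -2.26 on the high fat diet and -2.35, -2.26 and -2.10 in controls. As with miR-21a-5p, high fat diet replicate 2 and control replicate 3 were the highest arrays. Its r was 0.892 with the dimmer miR-21a-5p probe and 0.745 with the brighter probe when high fat diet replicate 2 was left out. Without the 2 arrays farthest from the median of miR-21a-5p, r was 0.543 for miR-223-3p and 0.0855 for miR-331-3p, so the second relation rested on those arrays. In columns outside the strips on every array, from 45 to 76, miR-223-3p kept an r of 0.790. Between groups miR-223-3p differed by 0.11 in high fat diet against control livers (adjusted p = 0.541) and by -0.15 in metformin against high fat diet livers (adjusted p = 0.687), and neither passed.

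**Figure D4:**
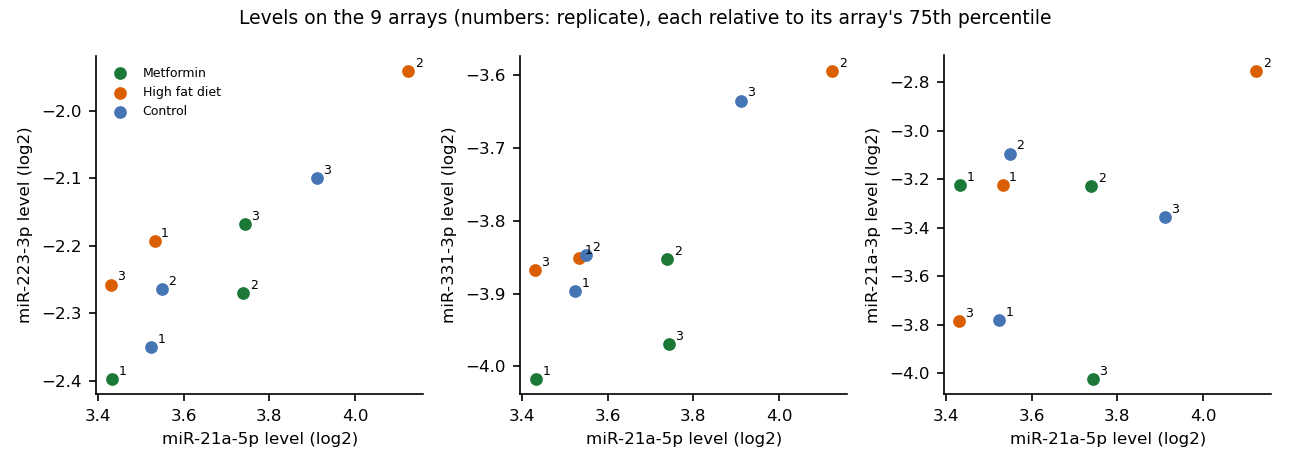
Log2 level of miR-223-3p, miR-331-3p and miR-21a-3p against that of the brighter miR-21a-5p probe on the 9 arrays, coloured by group and numbered by replicate. For miR-223-3p (r 0.885) and miR-331-3p (r 0.803) the points climb together, with high fat diet replicate 2 and control replicate 3 at the top right, and for miR-21a-3p (r 0.421) they are scattered.

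miR-223-3p stands on the list of leukocyte miRNAs, and the rest of that list gave little to compare. Of its 6 members 3 were tested, and miR-142a-5p, miR-150-5p and miR-155-5p were not well above background on any array. The level summed over all 6, undetected ones included, is relative to the array's 75th percentile. It was 0.547 to 0.625 with metformin, 0.615 to 0.660 on the high fat diet and 0.535 to 0.597 in controls. miR-342-3p rose by 0.42 in high fat diet against control livers (SE 0.10, limma, adjusted p = 0.0203), a call made under 17 of 24 settings (adjusted p up to 0.444). Those settings leave out the columns outside the strips on all arrays, since the miR-342-3p probe did not enter that fit. They also leave out the authors' deposited table, where 0 of 139 miRNAs passed. In the same comparison miR-142a-3p differed by -0.11 (limma, adjusted p = 0.617). Of 6 stellate and mesenchymal miRNAs 3 were tested. Their sum over all 6 was 0.445 to 0.462 with metformin, 0.469 to 0.543 on the high fat diet and 0.415 to 0.423 in controls. For both sums the high fat diet and control ranges were apart, as were those arrays for 41.2% of all probes tested. The sums were not tested. The part of leukocytes or stellate cells in the miR-21a-5p levels was not tested. The endothelial miR-126a-3p differed by 0.20 in high fat diet against control livers (adjusted p = 0.208), and the erythroid miR-451a by -1.01 in metformin against high fat diet livers (adjusted p = 0.113).

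With all spots read, most differences of the 3 miR-21a probes above turned in direction. That reading also took the mean in place of the median, and scaled to 124 probes in place of 187. The part of each change was not tested. With the mean of all spots, strips included, the brighter probe averaged 3.18 ± 0.19 in metformin livers, 2.93 ± 0.47 in high fat diet livers and 3.17 ± 0.38 in control livers (SD, n = 3 each). That put high fat diet livers at a difference of -0.24 from control livers, and metformin livers at 0.25 from high fat diet livers, with adjusted p values of 0.613 and 0.652 by limma. In that reading 9 of 223 probes (4.04%) passed in high fat diet against control livers and 0 (0%) in both comparisons of metformin livers, where 26 and 22 had an unadjusted p under 0.05, and no miR-21a probe passed. The dimmer probe moved likewise, to -0.39 and 0.28, and 3p probe A_54_P3447 to -0.32 and 0.34. The other 3p probe with signal, A_54_P3446, went the other way in that reading. It averaged -4.48 ± 0.55 with metformin, -4.10 ± 0.76 on the high fat diet and -4.67 ± 0.77 in controls. It was detected there on 2 metformin, 3 high fat diet and 1 control arrays. Over all probes tested the median difference with all spots was -0.17 in high fat diet against control livers and 0.19 in metformin against high fat diet livers, and the brighter probe lay -0.07 and 0.06 from it. The dimmer probe lay -0.22 and 0.09 from that median, and 3p probe A_54_P3447 -0.15 and 0.15. On high fat diet replicate 1, the brighter probe's mean with the strip included was 1399, over spots not marked as outliers or non-uniform. The median over the spots used was 2652.

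In the authors' deposited table, on a log2 scale with a constant per array that is not explained in the sources used here, miR-21a-5p stood at 7.24, 7.58 and 7.40 with metformin, 7.55, 8.12 and 6.83 on the high fat diet and 7.63, 7.48 and 7.62 in controls. The high fat diet group held the highest and the lowest of the 9 values there too. The same table gave miR-21a-3p as 0.166, 0.223 and -0.83 with metformin, 0.107, 0.839 and -0.85 on the high fat diet and -0.37, -0.18 and -0.25 in controls. Tested on these values, the miR-21a-5p difference between high fat diet and control livers was -0.07 and did not pass.

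**Figure D5:**
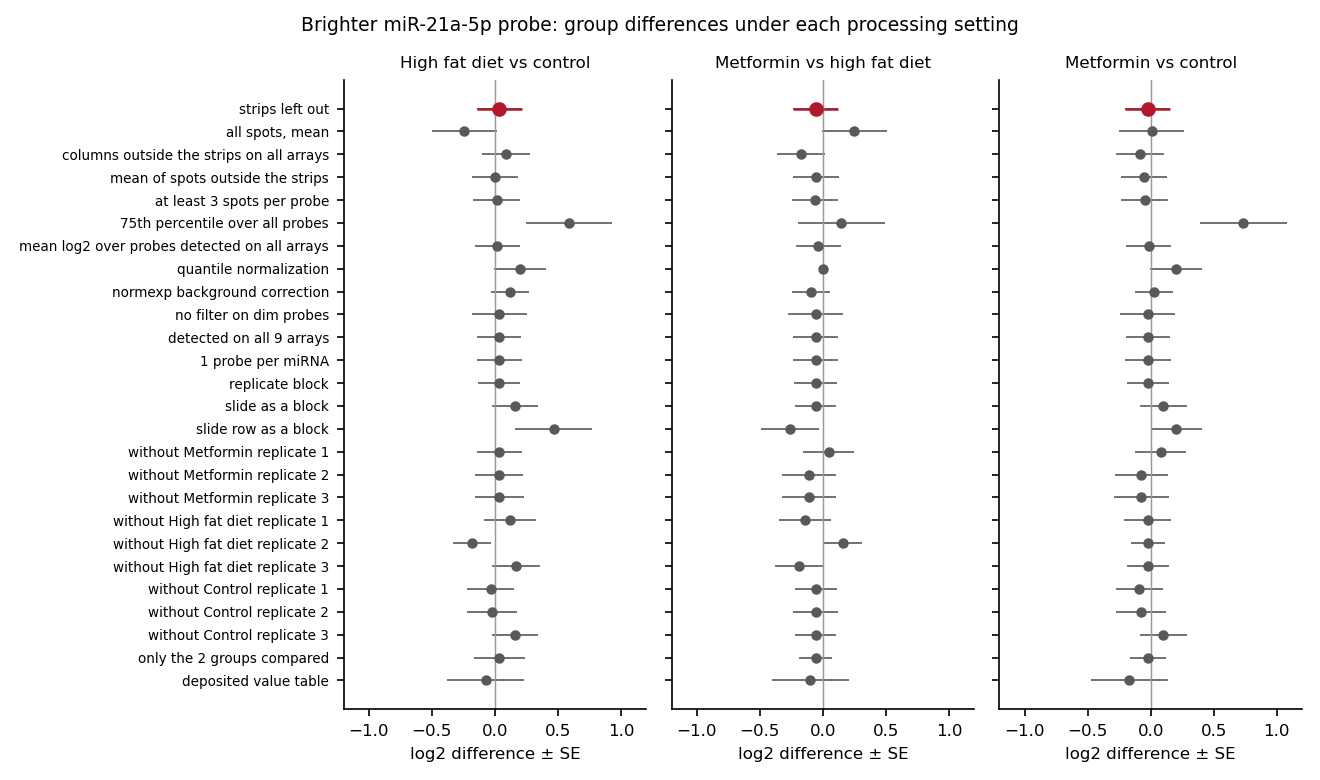
Log2 difference (± SE) of the brighter miR-21a-5p probe in high fat diet against control, metformin against high fat diet and metformin against control livers, under each processing setting, with the reading without strips in red. The values run from -0.24 to 0.59, from -0.26 to 0.25 and from -0.17 to 0.73, and none passed an adjusted p of 0.05.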

How the data were processed

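The deposited scanner files hold spot intensity after background subtraction by Agilent Feature Extraction 11.5.1.1, per the file headers. The submitters' processing notes give version 10.7. The authors' deposited value table is on a log2 scale; it was checked to be the log2 of the total gene signal shifted by 1 offset on each array, within 0.001 for all but 0 to 6 miRNAs. Strips were found from bright probes, moving in from both edges by 4 columns at a time for as long as 10% or more of their spots lacked signal. Spots marked non-uniform or as population outliers were left out, and probes with under 2 usable spots on any array (215) were dropped; that minimum was chosen after spot counts were seen. The median intensity was scaled to the 75th percentile (202 to 326) of the 187 probes that every array detected, floored at 0.0402 of it and put on the log2 scale. A probe was detected where over 0.5 of its spots were well above background, and tested where 1 group or more detected it throughout. limma 3.58.1 (R 4.3.3) fitted 3 group means, with Benjamini-Hochberg adjustment over 226 probes and a threshold of 0.05, two-sided. Exact permutation tests used scipy 1.17.1. Precision is limited by the number of arrays, and p-values cover the variation of pools. The fit was tested on simulated data with independent noise. Those data held no strips, slides or rows, so that test does not cover the limits these set.

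The members, lists and marker miRNAs were chosen with earlier results of these data known. miRNAs were named by rule: the miR-21a arms, miR-21b and miR-21c, the 5 miRNAs most correlated with the brighter probe, the neighbours of the 5p probes in brightness, 5 set members of the lists and any list member past the threshold. Where a miRNA other than miR-21a had several probes, the brightest was used. A background correction by normexp used the median spot signal, since the files carry no mean spot signal. Alternatives covered the spots used, scaling, background, filters, blocks and each array left out. The fits with slide or slide row as a block used the arrays of the shared slide only.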

Additional observations from a re-analysis of the deposited data

How the results depend on the processing

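Over 225 fitted values of the 3 miR-21a probes under 26 settings, 0 passed an adjusted p of 0.05 (lowest 0.0514). Of these values, 44 turned in direction. Part of the 225 repeat the main difference and could not turn. These are the main reading, changes of the detection filter, 1 probe per miRNA, the replicate block and the fits of only 2 groups. Leaving out an array of the group not compared repeats it too. Probe A_54_P3446 was fitted with all spots only and is not among the 225. Values below are log2 differences, and the cause of each turn in direction was not tested. In high fat diet against control livers, the brighter 5p probe turned to -0.24 with all spots and -0.073 in the deposited table, the dimmer to -0.39 with all spots, and the 3p probe to -0.32 with all spots, -0.16 with normexp and -0.22 with slide row as a block. In metformin against high fat diet livers, the brighter probe turned to 0.25 with all spots and 0.15 with the 75th percentile over all probes, the dimmer to 0.28 and 0.11, and the 3p probe to 0.34 with all spots and 0.031 with slide row as a block. In metformin against control livers, the brighter probe turned to 0.0076 with all spots and 0.73 with the 75th percentile over all probes. It also turned to 0.20 with quantile normalization, 0.026 with normexp, 0.10 on the shared slide alone and 0.20 with slide row as a block. The dimmer turned to 0.75 with that percentile and 0.0025 with quantile normalization. It was 0.16 on the shared slide alone and 0.21 with slide row as a block. The 3p probe turned to 0.024 with all spots, 0.016 with the mean of spots outside the strips, 0.68 with that percentile and 0.12 in the deposited table. That percentile moved the median of all probes to 0.59, 0.15 and 0.80 in the 3 comparisons, and relative to it the brighter probe lay at -0.01, -0.01 and -0.07.

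With each array left out in turn, the high fat diet difference from control ran from -0.18 to 0.17 for the brighter probe, -0.14 to 0.26 for the dimmer and -0.10 to 0.42 for 3p. The metformin difference from high fat diet ran from -0.19 to 0.16, -0.22 to 0.13 and -0.50 to 0.029, and from control from -0.092 to 0.10, -0.12 to 0.16 and -0.27 to 0.19.

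Against the 26 called in high fat diet against control livers, there were 9 of 223 (4.04%) with all spots. There were 2 with the 75th percentile over all probes, 51 with normexp and 1 with no filter on dim probes. The shared slide alone gave 47, slide row as a block 3 and only the 2 groups compared 13. The deposited table gave 0, where 10 had an unadjusted p under 0.05. With 1 array left out they ran from 6, without high fat diet replicate 2, to 50, without control replicate 3. Against the 0 called in metformin against high fat diet livers, there was 1 with the mean of spots outside the strips. There were 2 with scaling by the mean log2, 2 among probes detected on all 9 arrays and 2 with 1 probe per miRNA. The shared slide alone gave 3, and only the 2 groups compared 13. With 1 array left out the calls ran from 0 to 9, the latter without control replicate 1. Against the 3 called in metformin against control livers, there were 0 with all spots, in columns common to all arrays, with normexp, with no filter and in the deposited table. There were 128 with the 75th percentile over all probes, 5 with quantile normalization and 7 among probes detected on all 9 arrays. The shared slide alone gave 12, and slide row as a block 15. With 1 array left out they ran from 0, without any 1 of the metformin arrays, to 14, without control replicate 3.

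Samples share replicate numbers in the labels, but same-numbered arrays deviated together only in part: 5 of 9 correlations were over 0.1 and 2 were below 0 (-0.14 to 0.475). The numbers were therefore not taken as pairs. With a replicate block the miR-21a-5p difference between high fat diet and control livers was 0.03, which such a balanced block cannot change. In that fit 27, 0 and 8 probes were called in the 3 comparisons. Requiring 3 usable spots, chosen after seeing the data, left miR-21a-3p with no value. Low signal over background limits the 3p arm, and the number of pools limits both arms.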
